A study of Solanum lycopersicum with 8 samples.

Results

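The comparison set shoot apical meristems of tomato plants with 6 leaves against meristems of plants with 4 leaves, over both genotypes at once. It used all 8 libraries of the series, taken by the leaf number, genotype and replicate letter in the sample titles, so no measured value chose them. The 4 libraries at 6 leaves were 2 of the late termination (ltm) mutant and 2 of the wild type (WT), and the 4 libraries at 4 leaves likewise. The 2 libraries of each group carry the letters A and B. Sets of 4 values below are in the order ltm A, ltm B, WT A and WT B. All plants were greenhouse seedlings, fixed in acetone before the meristem was cut out. The labels give 2 to 12 days of growth for every group and tie no age to a leaf number. They state neither the ltm allele and its locus nor the WT cultivar, so the mutated gene was not checked. The series' design text sets WT at the floral transition against vegetative WT, and ltm against WT of the same vegetative stage. The pooled comparison estimates the leaf number change averaged over both genotypes, which need not be present in each. Whether A and B came from different plants is not in the labels, so the p-values reflect spread among libraries that may be technical in origin.

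The shoot apical meristem makes leaves on its flanks until it turns into an inflorescence and ends in a flower. Its stem cells are kept by a loop between the homeobox gene WUSCHEL (WUS) and the CLAVATA genes (CLV), and its undetermined state by KNOX homeobox genes. In tomato the leaf-made florigen SINGLE FLOWER TRUSS (SFT) speeds the change to flowering and its relative SELF PRUNING (SP) delays it in side shoots. In Arabidopsis, FRUITFULL-like MADS-box genes and SBP-box genes are switched on in the meristem as the plant ages and flowers.

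Between 17895357 reads (WT 6 leaves B) and 21987881 reads (WT 4 leaves A) were assigned to genes in a library. Values are reads per gene scaled by the authors with 1 size factor for each library, called normalized counts below. The tissue label was checked with meristem genes. WUS lay between 167 and 213 normalized counts at 6 leaves and between 152 and 246 at 4 leaves. CLV3 lay between 127 and 331 at 6 leaves and between 85.6 and 187 at 4 leaves. Both defining genes were thus present in every library. Both B libraries at 4 leaves stood apart. On the first principal component, with 35.4% of the variance, they lay at 44.2 (ltm) and 46.4 (WT), and the other libraries between -38.9 and 5.57. Counts, medians of lists and the changes of most genes described are therefore also given for the A and the B libraries alone. Summed over the light harvesting list, a marker list of green leaf tissue, the libraries held 21410 to 25390 normalized counts at 6 leaves and 23400 to 40960 at 4 leaves.

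No gene passed the test of leaf number over both genotypes. limma was fitted to log2(normalized count + 1) with leaf number, genotype and letter as terms, and 19186 of 34722 genes reached the minimum of 10 in 2 or more libraries and were tested. It called 0 genes at a Benjamini-Hochberg adjusted p of 0.05, and the smallest adjusted p was 0.0975. An unadjusted p under 0.05 was found for 3177 genes (16.6%), of which 1448 were higher at 6 leaves (7.55%) and 1729 lower (9.01%). On the recovered reads, edgeR's quasi-likelihood test called 2 genes (0.0104%). DESeq2 called 280 of the 18070 genes for which it gave an adjusted p (1.55%), 94 higher (0.52%) and 186 lower (1.03%). One library moved the limma count: it was 1745 (9.12%) without ltm 4 leaves A, 1 without WT 6 leaves A, and 0 without any other single library. Without ltm 4 leaves A, 740 of the called genes were higher at 6 leaves (3.87%) and 1005 lower (5.25%). At 4 leaves that fit keeps both B libraries but only the WT library of A. The fit without WT 4 leaves A keeps both B libraries and only the ltm library of A, and it called 0. Why the count rose was not tested. Below, "called" names the test, and other members are given by their values.

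All 4 libraries at 6 leaves lay above all 4 at 4 leaves for 490 genes (2.55%) and below them for 543 genes (2.83%). The 8 libraries also form 4 pairs of the same genotype and letter. A log2 change of more than 1 in every pair was found for 4 genes that were higher at 6 leaves (0.0208%) and 9 that were lower (0.0469%). The 4 included MBP20, a FRUITFULL-like MADS-box gene, and the 9 included Solyc03g005780, listed as a chlorophyll a/b-binding protein gene.

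Genes of the floral transition had the largest median change among the 15 lists in the fit of all 8 libraries. The lists were chosen with earlier results of these data known, so this rank only describes them. Of the 18 floral transition members 12 were tested, and 11 of these had a higher mean at 6 leaves. Their median log2 change was 0.67, against -0.0016 over all genes tested. It was 0.40 in the A pairs and 0.61 in the B pairs. In the B pairs the flavonoid (-0.99) and light harvesting (-0.96) medians were larger in size. The floral transition median was 0.34 in ltm alone and 1.20 in WT alone. In ltm the light harvesting median (-0.68) was larger in size. limma gave 7 floral transition members an unadjusted p under 0.05, all higher at 6 leaves (7.55% of all genes), and called 0. DESeq2 called 4: MBP20, STM3, FUL2 and BLIND (BL), all higher (0.52% of all genes). FUL2 and BL were also the 2 members whose libraries at 6 leaves all lay above those at 4 leaves (2.55% of all genes). Without ltm 4 leaves A, limma called 6 members, all higher, beside 3.87% of all genes.

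The FRUITFULL-like genes act in the meristem in the change to flowering. MBP20 had 19.9, 11.0, 71.7 and 109 normalized counts at 6 leaves, against 3.05, 1.01, 6.4 and 11.5 at 4 leaves. Each library at 6 leaves was higher than its partner of the same genotype and letter, although ltm 6 leaves B lay just under WT 4 leaves B. The log2 change was 2.84 ± 0.40 (SE; limma adjusted p = 0.127; DESeq2 adjusted p = 3.12e-06). It was nearly the same size in the A pairs (2.83 ± 0.57) and in the B pairs (2.86 ± 0.57).

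FUL2 had 124, 166, 198 and 387 normalized counts at 6 leaves, against 120, 82.6, 104 and 122 at 4 leaves. The groups did not overlap, though ltm 6 leaves A lay just above WT 4 leaves B. The log2 change was 0.91 ± 0.25 (limma adjusted p = 0.201; DESeq2 adjusted p = 0.0284), 0.49 ± 0.27 in the A pairs and 1.33 ± 0.27 in the B pairs. FUL1 had 68.1, 37.0, 134 and 142 normalized counts at 6 leaves, against 37.6, 43.3, 35.6 and 51.2 at 4 leaves. The WT values at 6 leaves stood above all others, and ltm 6 leaves B lay within the range at 4 leaves. Its log2 change was 0.99 ± 0.32 (limma adjusted p = 0.223), 1.36 ± 0.41 in the A pairs and 0.61 ± 0.41 in the B pairs. The fourth FRUITFULL-like gene, MBP10, fell under the filter on low values, with 7 reads at 6 leaves and 2 at 4 leaves in all.

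Solyc05g056620, listed with the MADS-box genes of this list but of uncertain name, was nearly absent outside WT at 6 leaves. It had 0.946, 0, 124 and 146 normalized counts at 6 leaves, against 0, 0, 0 and 1.04 at 4 leaves. Its 255 reads at 6 leaves against 1 at 4 leaves amount to a 260.5-fold ratio (95% Clopper-Pearson interval 46.4 to 10330, for counting error only). It was 1 of the 2 genes that edgeR called (adjusted p = 0.00969; limma adjusted p = 0.223; DESeq2 adjusted p = 0.289). Both high libraries were WT at 6 leaves, and the other 6 held at most 1.04 normalized counts. The gene passed the filter on low values only through the WT libraries at 6 leaves. Its ratio and p-values therefore describe it and are no independent support for a leaf number change.

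**Figure D1:**
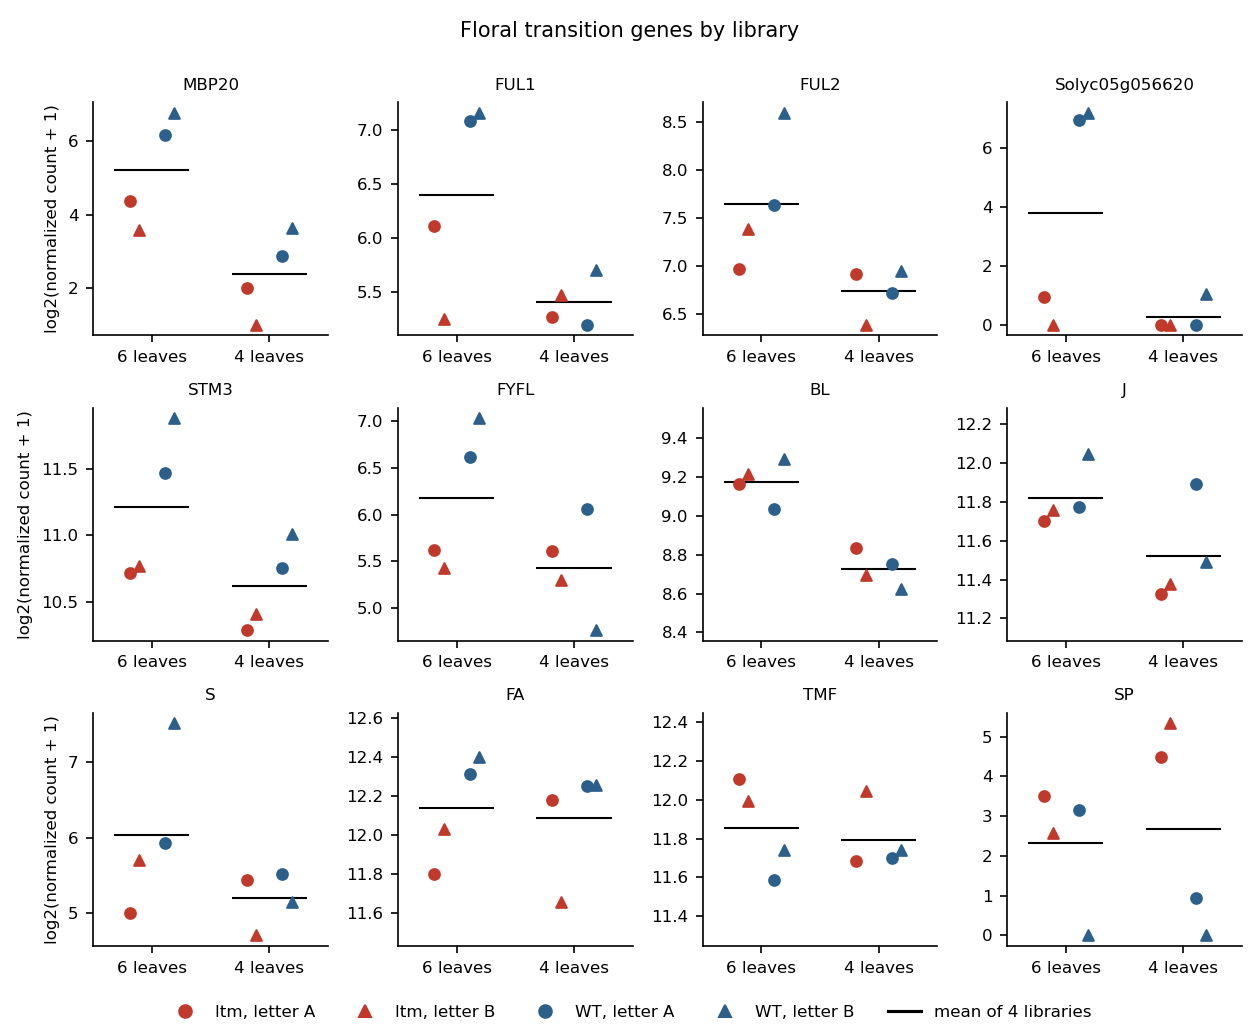
Normalized counts on the log2(value + 1) scale of the 12 tested floral transition genes in each library, with libraries at 6 leaves left and at 4 leaves right in each panel; red is ltm, blue is WT, circles are letter A, triangles letter B and bars the mean of 4 libraries, and each panel has its own vertical range. MBP20 and STM3 lie higher at 6 leaves in every pair of the same colour and shape, and Solyc05g056620 is high in the WT libraries at 6 leaves alone.

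STM3, a MADS-box gene similar to Arabidopsis SOC1, which integrates flowering signals, had 1682, 1742, 2839 and 3775 normalized counts at 6 leaves, against 1247, 1358, 1725 and 2064 at 4 leaves. Every library at 6 leaves was above its partner, while the ltm values at 6 leaves lay within the range at 4 leaves. The log2 change was 0.59 ± 0.10 (limma adjusted p = 0.149; DESeq2 adjusted p = 4.05e-05), 0.58 ± 0.13 in the A pairs and 0.61 ± 0.13 in the B pairs. BL, a MYB gene needed to form side shoots, had 573, 593, 524 and 625 normalized counts at 6 leaves, against 455, 414, 430.4 and 394 at 4 leaves. The groups did not overlap, and the genotypes were alike. Its log2 change was 0.45 ± 0.09 (limma adjusted p = 0.166; DESeq2 adjusted p = 0.0191), 0.31 ± 0.10 in the A pairs and 0.59 ± 0.10 in the B pairs.

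In 4 other members the pairs differed among themselves. FYFL, a MADS-box gene, had 48.3, 42.0, 97.6 and 130.2 normalized counts at 6 leaves, against 47.7, 38.3, 65.8 and 26.1 at 4 leaves, and only its WT libraries at 6 leaves stood above the rest. COMPOUND INFLORESCENCE (S), which encodes a homeobox factor and shapes how the inflorescence branches, had 31.2, 51.0, 59.7 and 181 normalized counts at 6 leaves, against 42.6, 25.2, 44.8 and 34.5 at 4 leaves. The log2 change of S was -0.01 ± 0.38 in the A pairs and 1.68 ± 0.38 in the B pairs, and WT 6 leaves B held its one high value. JOINTLESS (J), a MADS-box gene that keeps the inflorescence from going back to leaf growth, had 3324, 3460.0, 3497 and 4227 normalized counts at 6 leaves, against 2564, 2662, 3799 and 2873 at 4 leaves. Its log2 change was 0.30 ± 0.10 (limma adjusted p = 0.236), 0.13 ± 0.11 in A and 0.47 ± 0.11 in B, and WT A ran against the other 3 pairs. SP had 10.4, 5.0, 7.97 and 0 normalized counts at 6 leaves, against 21.3, 39.3, 0.914 and 0 at 4 leaves. It had fewer counts at 6 leaves in both ltm pairs and more in WT A, and its log2 change of -0.37 ± 0.80 was the only negative one among the tested members.

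FALSIFLORA (FA), the tomato relative of the flower meristem gene LEAFY, and TERMINATING FLOWER (TMF), which delays the change to flowering, had log2 changes near 0. FA had 3568, 4186, 5091 and 5407 normalized counts at 6 leaves, against 4645, 3229, 4874 and 4887 at 4 leaves, and its log2 change was 0.05 ± 0.11. TMF had 4413, 4076, 3074 and 3419 normalized counts at 6 leaves, against 3286, 4225, 3325 and 3423 at 4 leaves, and its log2 change was 0.06 ± 0.09. The groups overlapped for both genes, and the sign of each change turned when some single libraries were left out (-0.05 to 0.18 for FA and -0.03 to 0.11 for TMF).

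Apart from SP, the florigen family was close to undetected. SFT had 9 reads at 6 leaves, all in WT 6 leaves B (10.2 normalized counts), and 0 at 4 leaves. SP5G, SP6A and SP9D had 0 reads in every library, where a count of 0 allows up to 3 reads in a library. ANANTHA (AN), the F-box gene that acts with FA in making flowers, had 4.73, 4.0, 0.996 and 0 normalized counts at 6 leaves, against 4.06, 11.1, 0 and 0 at 4 leaves. Its few reads lay almost all in ltm, at both leaf numbers. In such bulk samples, fewer cells of a type and less RNA per cell cannot be told apart.

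Few flower organ genes passed the filter. Of 15 members of the floral organ and SEPALLATA list 3 were tested, and the other 12 stayed under it. Among these, the SEPALLATA-like gene J2 had 0, 1.0, 19.9 and 7.93 normalized counts at 6 leaves, against 0, 0, 0.914 and 5.22 at 4 leaves. LIN, of the same class, had 0, 0, 9.96 and 6.8 normalized counts at 6 leaves, against 1.02, 1.01, 0.914 and 3.13 at 4 leaves. The higher values of both lay in WT at 6 leaves, on 28 reads for J2 and 16 for LIN over the 4 libraries, against 6 reads each at 4 leaves. TM6, a B-class MADS-box gene, had 606, 822, 874 and 894 normalized counts at 6 leaves, against 737, 504, 686 and 507 at 4 leaves. ltm 6 leaves A lay within the range at 4 leaves. Its log2 change was 0.40 ± 0.16 (limma adjusted p = 0.272), 0.03 ± 0.14 in the A pairs and 0.76 ± 0.14 in the B pairs. limma called TM6 without ltm 4 leaves A. MBP3, an AGAMOUS-like gene, had 77.6, 91.0, 66.7 and 65.7 normalized counts at 6 leaves, against 60.9, 60.4, 146 and 124 at 4 leaves. AGL6 had 0, 1.0, 12.9 and 11.3 normalized counts at 6 leaves, against 3.05, 10.1, 10.1 and 15.7 at 4 leaves.

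Leaf number changes were tested for a difference between the genotypes with an interaction term. limma made 0 calls, and 274 genes (1.43%) passed 0.05 before adjustment. edgeR and DESeq2 also called 0, and at the unadjusted level they had 273 (1.42%) and 105 genes (0.547%). In the floral transition list the median log2 change was 0.34 in ltm and 1.20 in WT, against 0.00049 and -0.0029 over all genes tested. An unadjusted interaction p under 0.05 was found for 4 of the 12 tested members (1.43% of all genes), and in all 4 the WT change was the larger. The members were chosen with earlier results of these data known, so this count describes them and is no independent test. Solyc05g056620 had a change of 0.48 in ltm and 6.57 in WT, and FUL1 one of 0.31 in ltm and 1.67 in WT. STM3 had 0.40 in ltm and 0.79 in WT, and FYFL 0.07 in ltm and 1.42 in WT. BL had a change of 0.42 in ltm and 0.47 in WT, and J one of 0.38 in ltm and 0.22 in WT. MBP3 had the second smallest interaction p of all list members, with a change of 0.46 in ltm and -1.01 in WT, and its limma adjusted p was 1.0. The WT libraries alone gave 310 calls in limma and the ltm libraries alone 0, from 1 residual degree of freedom each.

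The A pairs and the B pairs share no library, so they show how far the leaf number changes repeat. Across the 19186 genes the changes in the A pairs and in the B pairs had a Pearson r of 0.0724 and a Spearman rho of 0.0956. These are descriptions across genes, which are not independent replicates. The direction was the same for 10409 genes (54.3%). The changes were also smaller in the A pairs, with a median absolute log2 change of 0.107 in A and 0.223 in B. limma on the 4 A libraries called 5 genes (0.0261%), 4 higher and 1 lower, with 944 at an unadjusted p under 0.05 (4.92%). On the 4 B libraries it called 6233 genes (32.5%), 2821 higher (14.7%) and 3412 lower (17.8%), with 7976 at an unadjusted p under 0.05 (41.6%). Each of these fits leaves 1 residual degree of freedom, and in the B libraries limma then gave genes of like level the same spread. With the spread taken from all 8 libraries, 2 genes were called in the A pairs (0.0104%) and 3339 in the B pairs (17.4%).

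**Figure D2:**
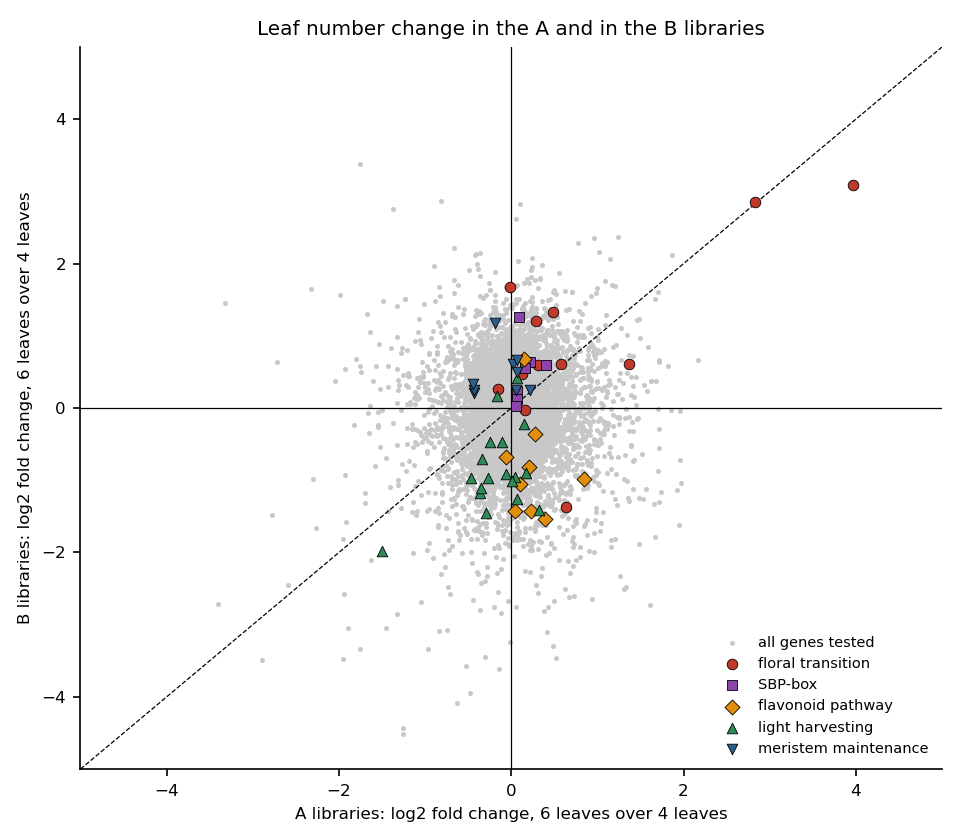
Log2 fold change, 6 leaves over 4 leaves, of each tested gene in the A libraries (horizontal) and in the B libraries (vertical), with 5 gene lists in colour; the dashed line marks equal change and 2 genes lie outside the axes. The cloud has a Pearson r of 0.0724; 2 floral transition genes lie far out near the line, while flavonoid and light harvesting genes lie mostly below 0 in the B libraries.

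The difference between B and A in the leaf number change was tested as an interaction. limma called 302 genes (1.57%): in 131 the B change was the higher (0.683%) and in 171 the lower (0.891%). edgeR called 301 (1.57%) and DESeq2 701 of 16582 (4.23%). Single libraries moved this count strongly. It was 2479 without WT 4 leaves A, 942 without WT 6 leaves A, 20 without ltm 6 leaves A, 6 without WT 4 leaves B, 1 without WT 6 leaves B and 0 without ltm 6 leaves B or ltm 4 leaves B. It was 236 without ltm 4 leaves A. The letters cannot be told apart from whatever else differed between the A and B libraries, which the labels do not describe.

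Meristem genes had higher means at 6 leaves in the B pairs, while in the A pairs they went both ways. All 9 members of the meristem maintenance list were tested, 6 with a higher and 3 with a lower mean at 6 leaves, and limma called 0. The median log2 change was 0.23, with 0.02 in the A pairs and 0.33 in the B pairs, against -0.0022 in A and -0.0036 in B over all genes tested. All 9 were higher at 6 leaves in the B pairs and 5 in the A pairs. The difference between B and A was called for 3 members (B minus A higher, beside 0.683% of all genes): CLV1, CLV3 and TKN4. Without ltm 4 leaves A limma called 3 members for leaf number, TKN2, TKN3 and TKN4, all higher (3.87% of all genes). The changes of these 3 genes lay mainly in the B pairs.

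CLV1, the receptor kinase of the CLAVATA loop, had 2400, 3124, 2484 and 3054 normalized counts at 6 leaves, against 3234, 2400.0, 3413 and 2503 at 4 leaves. It was lower at 6 leaves in both A pairs and higher in both B pairs, with a log2 change of -0.44 ± 0.07 in A and 0.33 ± 0.07 in B. The difference of 0.78 ± 0.10 had the smallest p of all list members in this test (limma adjusted p = 0.0183). CLV3, the peptide that limits stem cells, had 127, 181, 143 and 331 normalized counts at 6 leaves, against 127, 85.6, 187 and 136 at 4 leaves. CLV3 had a log2 change of -0.19 ± 0.19 in A and 1.17 ± 0.19 in B (difference 1.37 ± 0.26, limma adjusted p = 0.0393). WUS, which sustains the stem cells, had a log2 change of -0.43 ± 0.16 in A and 0.20 ± 0.16 in B, a difference that was not called (limma adjusted p = 0.157).

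The 4 KNOX genes keep cells of the meristem undetermined. All 4 had higher values at 6 leaves, with log2 changes of 0.16 ± 0.07 (TKN1), 0.32 ± 0.12 (TKN2), 0.28 ± 0.10 (TKN3) and 0.36 ± 0.12 (TKN4), none called. In A and in B the changes were 0.06 and 0.26 for TKN1, 0.02 and 0.61 for TKN2, and 0.06 and 0.50 for TKN3. TKN4 had 1201, 1333, 1306 and 1648 normalized counts at 6 leaves, against 1139, 896, 1262 and 972 at 4 leaves. Its change was 0.06 ± 0.08 in A and 0.67 ± 0.08 in B (difference 0.60 ± 0.12, limma adjusted p = 0.0409). CLV2, a receptor-like protein of the same loop, had 738, 672, 708 and 668 normalized counts at 6 leaves, against 598, 564, 647 and 567 at 4 leaves. The groups did not overlap, and the log2 change was 0.22 ± 0.09 in A and 0.24 ± 0.09 in B (0.23 ± 0.06 in all, limma adjusted p = 0.203).

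No organ boundary or side shoot gene was called by limma. All 8 members were tested, 6 with a higher and 2 with a lower mean at 6 leaves and a median log2 change of 0.13 (0.08 in A, 0.24 in B). An unadjusted p under 0.05 was given to 3 of them, BRC1b, LS and BOP1, all higher (7.55% of all genes). BRC1b, a TCP gene that holds side buds back, had 166, 260, 90.6 and 136 normalized counts at 6 leaves, against 79.2, 129.9, 81.3 and 64.7 at 4 leaves. Every library at 6 leaves was above its partner, and the groups overlapped because ltm 4 leaves B lay above WT 6 leaves A. The log2 change was 0.82 ± 0.19 (limma adjusted p = 0.184; DESeq2 adjusted p = 0.0308), 0.60 ± 0.25 in A and 1.03 ± 0.25 in B. BRC1b was the list's 1 DESeq2 call (0.52% of all genes called higher). LATERAL SUPPRESSOR (LS), a GRAS gene needed to start side meristems, had a log2 change of 0.39 ± 0.12, 0.11 ± 0.11 in A and 0.68 ± 0.11 in B. BOP1, a BLADE-ON-PETIOLE gene of organ bases, had one of 0.39 ± 0.11, 0.15 ± 0.11 in A and 0.62 ± 0.11 in B, and was called without ltm 4 leaves A.

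Among the 5 genes of lateral organs and leaves, all tested, 4 had a higher mean at 6 leaves and the median log2 change was 0.19 (0.03 in A, 0.37 in B). TRIFOLIATE (TF), a MYB gene of compound leaves, had 1827, 1941, 1675 and 1638 normalized counts at 6 leaves, against 1626, 1334, 1574 and 1272 at 4 leaves. The groups did not overlap, though WT 6 leaves B lay just above ltm 4 leaves A. TF had a log2 change of 0.29 ± 0.08 (limma adjusted p = 0.202), 0.13 ± 0.08 in A and 0.45 ± 0.08 in B. CLAUSA, a MYB gene that restrains KNOX genes in leaves, had a log2 change of 0.03 ± 0.09 in A and 0.73 ± 0.09 in B (difference 0.70 ± 0.12, limma adjusted p = 0.0327).

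SBP-box genes encode transcription factors that, in many plants, are kept low in young shoots by a microRNA. All 8 were tested, and all 8 had a higher mean at 6 leaves in the A pairs and in the B pairs, which share no library. Single pairs were less uniform. CNR (-0.18), SBP6a (-0.04) and SBP10 (-0.04) were lower at 6 leaves in ltm A, and SBP12a (-0.003) in WT B. The median log2 change was 0.36 (0.13 in A, 0.56 in B). limma called 0 and gave 5 members an unadjusted p under 0.05, all higher (7.55% of all genes), and DESeq2 called 1 (0.52% of all genes). Without ltm 4 leaves A, limma called 4, all higher (3.87% of all genes).

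SBP15, the member DESeq2 called, had 1404, 1071, 1320.4 and 1401 normalized counts at 6 leaves, against 1093, 786, 967 and 839 at 4 leaves. ltm 6 leaves B lay below ltm 4 leaves A, and the other 3 libraries at 6 leaves were above all libraries at 4 leaves. The log2 change was 0.50 ± 0.10 (limma adjusted p = 0.166; DESeq2 adjusted p = 0.00342), 0.41 ± 0.12 in A and 0.59 ± 0.12 in B. SBP3 had 155, 139, 252 and 439 normalized counts at 6 leaves, against 140.1, 83.6, 245 and 126 at 4 leaves, with a log2 change of 0.09 ± 0.23 in A and 1.26 ± 0.23 in B. Its high value lay in WT 6 leaves B. SBP6c (0.43 ± 0.11), SBP13 (0.36 ± 0.11) and SBP6a (0.15 ± 0.07) were the other members with an unadjusted p under 0.05. The AP2-like genes, which delay flowering in Arabidopsis, gave a median of 0.18 over 5 tested members (0.01 in A, 0.19 in B). AP2c was higher by 0.33 ± 0.11 and AP2d lower, at -0.37 ± 0.16 (limma adjusted p = 0.237 and 0.291). The change of AP2c was 0.10 in A and 0.55 in B, and that of AP2d -0.03 in A and -0.70 in B.

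**Figure D3:**
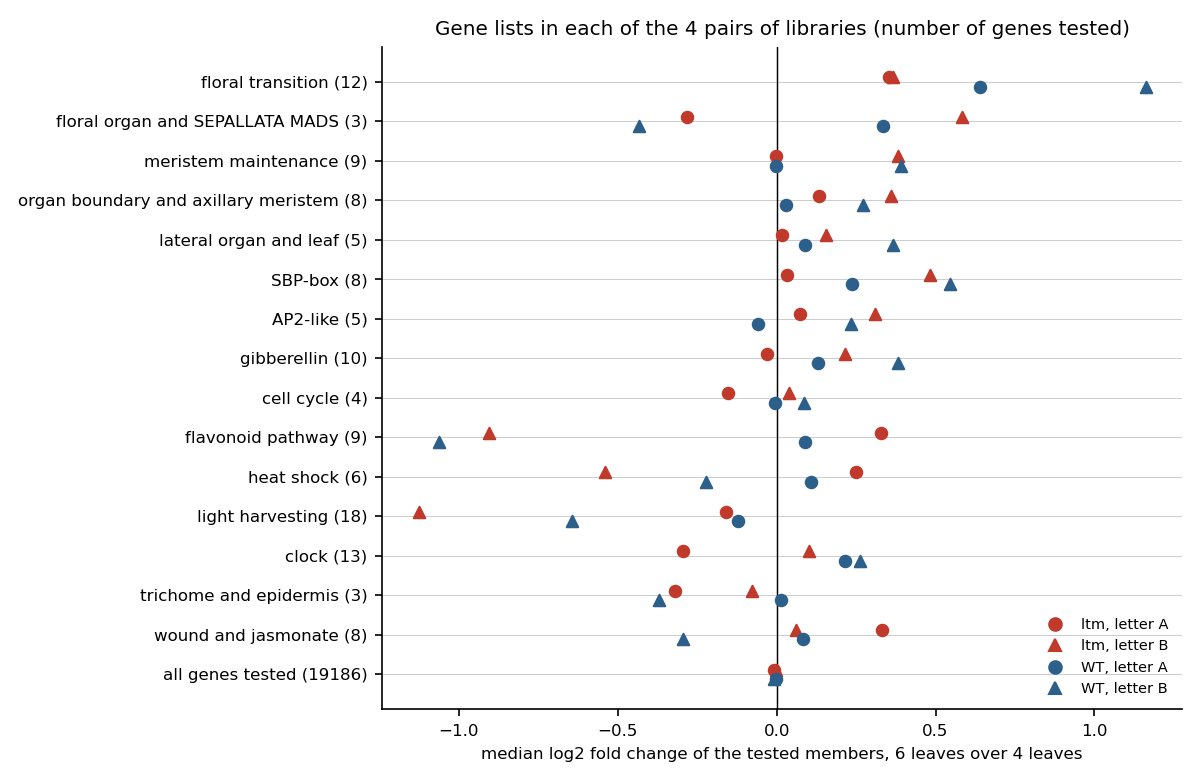
Median log2 fold change, 6 leaves over 4 leaves, of the tested members of each list in each of the 4 pairs of libraries of the same genotype and letter, with the number of genes tested in brackets; red is ltm, blue is WT, circles are letter A and triangles letter B. Floral transition, SBP-box, organ boundary and lateral organ medians lie above 0 in all 4 pairs. Some of these are near 0, such as 0.03 for SBP-box and 0.02 for lateral organ in ltm A. Light harvesting medians lie below 0 in all 4, and flavonoid medians lie above 0 in A and below 0 in B.

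No gibberellin or cell cycle gene was called with all 8 libraries. Of 15 gibberellin genes 10 were tested, 5 with a higher and 5 with a lower mean at 6 leaves (median 0.02, -0.20 in A and 0.30 in B). GID1a, a gibberellin receptor, had a log2 change of 0.21 ± 0.08 (limma adjusted p = 0.242), and the biosynthesis gene GA20ox3, with at most 24.2 normalized counts in a library, one of -2.21 ± 0.93 (limma adjusted p = 0.288). The change of GA20ox3 was -0.48 ± 1.04 in A and -3.94 ± 1.04 in B, and limma called it without ltm 4 leaves A. GA20ox3 passed the filter on low values only through the B libraries at 4 leaves, so that call is no independent support. For 3 genes of gibberellin breakdown the change had opposite signs in A and B. GA2ox5 had 94.6, 178, 158 and 147 normalized counts at 6 leaves, against 444, 46.3, 117 and 35.5 at 4 leaves, with ltm 4 leaves A far above and both B libraries at 4 leaves below the rest. GA2ox5 had a log2 change of -0.89 ± 0.45 in A and 1.97 ± 0.45 in B. GA2ox4 had one of -1.76 ± 0.79 in A and 3.38 ± 0.79 in B, and GA2ox2, with at most 16.2 normalized counts in a library, one of -1.98 ± 0.76 in A and 1.57 ± 0.76 in B. None of these differences between B and A was called (limma adjusted p = 0.0582 for GA2ox5, 0.0535 for GA2ox4 and 0.112 for GA2ox2). The 4 cell cycle genes had a median of -0.03, and CYCB1-1, a mitotic cyclin, one of -0.13 ± 0.06 (limma adjusted p = 0.345).

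The flavonoid pathway turned with the letter. All 9 members were tested. In the A pairs 8 of them were higher at 6 leaves and in the B pairs 8 were lower, with medians of 0.21 in A and -0.99 in B (-0.37 in all). Without ltm 4 leaves A limma called 3 members for leaf number, all lower (5.25% of all genes). The difference between B and A was called for 6 members (B minus A lower, beside 0.891% of all genes): CHS1, FLS, DFR, ANS, F35H and PAL5. The values show where it lay. ANS, the anthocyanidin synthase gene, had 377, 406, 308 and 266 normalized counts at 6 leaves, against 301, 973, 363 and 808 at 4 leaves. DFR, the dihydroflavonol reductase gene, had 397, 500, 452 and 323 normalized counts at 6 leaves, against 325, 1208, 402 and 973 at 4 leaves. In both genes the B libraries at 4 leaves stood alone above the other libraries. The B minus A difference was -1.47 ± 0.24 for ANS, -1.66 ± 0.27 for DFR, -1.83 ± 0.32 for CHS1 (chalcone synthase) and -1.94 ± 0.41 for F35H, a hydroxylase of blue pigments (limma adjusted p = 0.026, 0.026, 0.0306 and 0.0491). PAL5, phenylalanine ammonia-lyase at the head of the pathway, had 683, 399, 584 and 459 normalized counts at 6 leaves, against 543, 747, 550.1 and 759 at 4 leaves. Its B minus A difference of -1.02 ± 0.16 had the second smallest p of all list members (limma adjusted p = 0.0245). FLS, flavonol synthase, had a difference of -0.62 ± 0.12 (limma adjusted p = 0.043). MYB12, the regulator of flavonol genes, ran the other way, at 0.15 ± 0.14 in A and 0.68 ± 0.14 in B, without a call.

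Genes of light harvesting mostly had lower means at 6 leaves. Of 20 members 18 were tested, 17 with a lower mean at 6 leaves, and one member (Solyc02g071030) had 0 reads throughout. The median log2 change was -0.51, with -0.13 in A and -0.96 in B. In the A pairs 11 members were lower and 7 higher at 6 leaves, and in the B pairs 16 were lower and 2 higher. limma called 0 and gave 8 an unadjusted p under 0.05, all lower (9.01% of all genes). DESeq2 called 5, all lower (1.03% of all genes), and the libraries of 2 members did not overlap, lower at 6 leaves (2.83% of all genes). Without ltm 4 leaves A limma called 7, all lower (5.25% of all genes).

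Solyc03g005780 had 53.0, 90.0, 95.6 and 178 normalized counts at 6 leaves, against 182, 663, 226 and 379 at 4 leaves. The groups did not overlap, and it was lower in every pair. Its log2 change was -1.74 ± 0.27 (limma adjusted p = 0.127; DESeq2 adjusted p = 1.88e-08), -1.49 ± 0.34 in A and -1.98 ± 0.34 in B. Solyc12g011280, the other member without overlap, had 211, 154, 234 and 189 normalized counts at 6 leaves, against 252, 460.3, 327 and 326 at 4 leaves (-0.77 ± 0.20, -0.37 ± 0.20 in A and -1.18 ± 0.20 in B). Solyc07g047850 had 2159, 2704, 2652 and 2981 normalized counts at 6 leaves, against 2867, 6739, 3262 and 5575 at 4 leaves. Its highest values were again both B libraries at 4 leaves, and its log2 change was -0.73 ± 0.16 (DESeq2 adjusted p = 0.000258), -0.35 ± 0.12 in A and -1.11 ± 0.12 in B. Within the list the difference between B and A was called for 2 genes, Solyc02g070940 and Solyc03g005760 (-1.07 ± 0.22 and -0.85 ± 0.16), both with B minus A lower (0.891% of all genes). RBCS1, a small subunit of the carbon-fixing enzyme, had a log2 change of -0.52 ± 0.16, without a call. The chlorophyll-binding genes are a closely similar family, so reads that match several members may be miscounted and values of single members are uncertain.

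**Figure D4:**
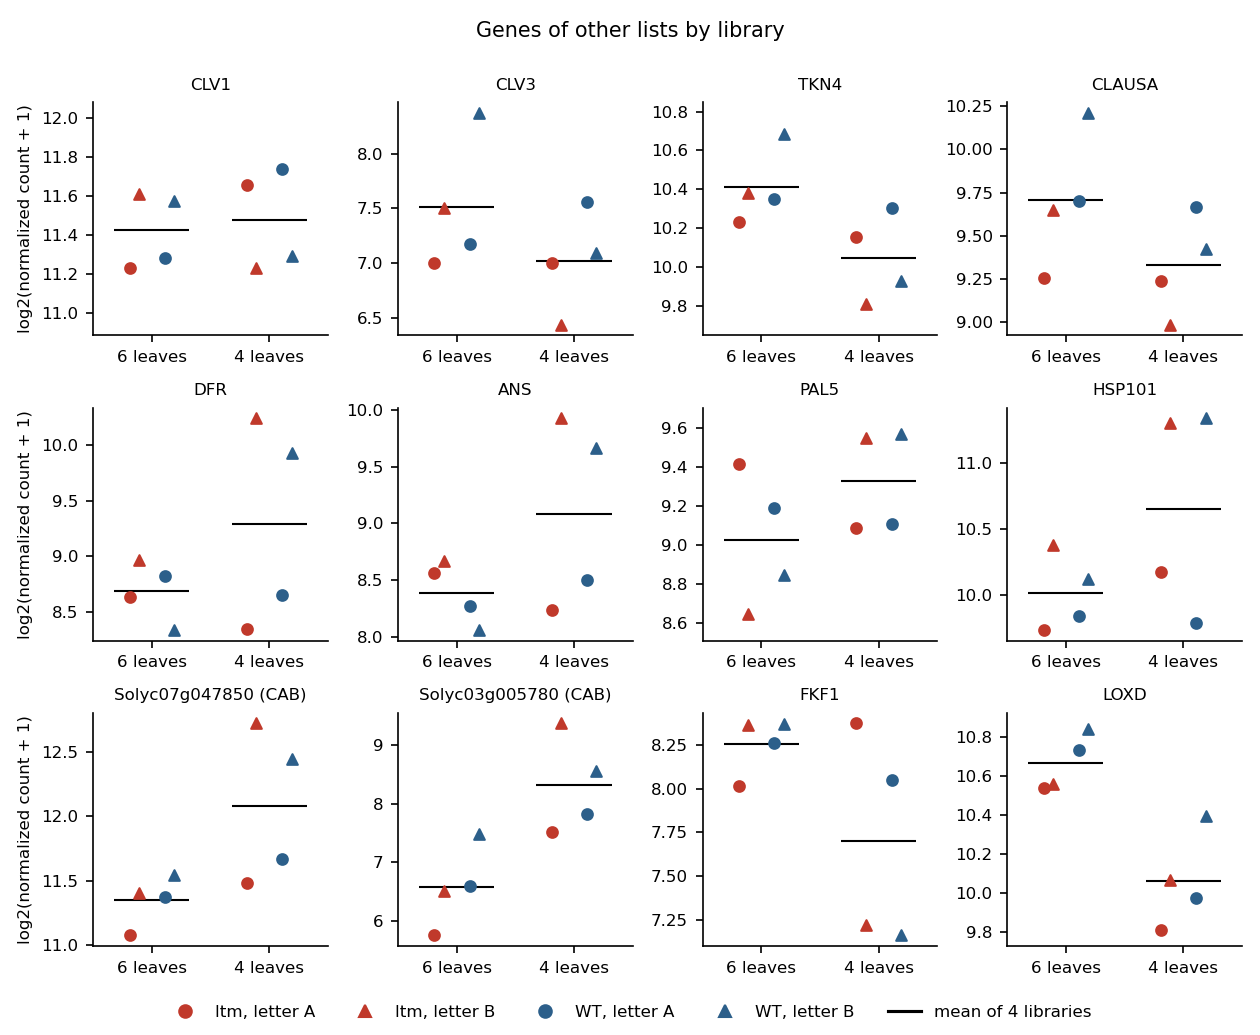
Normalized counts on the log2(value + 1) scale of 12 genes of other lists in each library, with libraries at 6 leaves left and at 4 leaves right in each panel; red is ltm, blue is WT, circles are letter A, triangles letter B and bars the mean of 4 libraries, and each panel has its own vertical range. CLV1, DFR, ANS, PAL5 and FKF1 separate the B from the A libraries at 4 leaves, while Solyc03g005780 and LOXD keep the leaf numbers apart.

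Lists of heat, clock, wound and epidermis genes were set beside these. Of 7 heat shock genes 6 were tested, with 3 higher and 3 lower at 6 leaves and medians of 0.14 in A and -0.38 in B. Without ltm 4 leaves A limma called 1 of them, higher at 6 leaves (3.87% of all genes). HSP101, a chaperone that frees proteins from aggregates, had 853, 1329, 917 and 1117 normalized counts at 6 leaves, against 1153, 2526, 885 and 2586 at 4 leaves. The B libraries at 4 leaves held its high values. Its log2 change was -0.63 ± 0.17 (limma adjusted p = 0.201; DESeq2 adjusted p = 0.0105), -0.19 ± 0.12 in A and -1.07 ± 0.12 in B, and the difference between B and A was called (-0.88 ± 0.17, limma adjusted p = 0.0391). The part of handling or heat in these values was not tested.

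The 13 clock genes, all tested and named from their identifiers alone, had a median log2 change of 0.14 (0.09 in A, 0.26 in B), 9 with a higher and 4 with a lower mean at 6 leaves. limma called 0 and gave 4 an unadjusted p under 0.05 among the higher (7.55% of all genes) and 1 among the lower (9.01% of all genes). The 4 were GI_b (1.02 ± 0.40), PRR5 (0.75 ± 0.28), LUX (0.67 ± 0.26) and FKF1 (0.55 ± 0.24), and the 1 was PRR9 (-0.51 ± 0.18). Their changes were smaller in A than in B, with 0.27 in A and 1.77 in B for GI_b, 0.19 in A and 1.32 in B for PRR5, 0.23 in A and 1.11 in B for LUX and -0.21 in A and -0.80 in B for PRR9. The change of GI_b ranged over 0.62 to 1.57 with single libraries left out. Without ltm 4 leaves A limma called 3 clock genes, GI_b, FKF1 and TOC1, all higher (3.87% of all genes). Among the other members, the second GI copy, GI_a, had a log2 change of -0.15 ± 0.30, LNK2 one of -0.31 ± 0.18 and PRR7 one of 0.44 ± 0.38. FKF1, a light sensor of the day length response, had 257, 329, 307 and 331 normalized counts at 6 leaves, against 331, 148, 264 and 142 at 4 leaves. Its B minus A difference was called (1.25 ± 0.22, limma adjusted p = 0.0301), as was that of TOC1 (0.86 ± 0.17, limma adjusted p = 0.0409). For both genes the low values were the B libraries at 4 leaves. The sources used here do not give the hour of sampling, and its part in the result was not tested.

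Of 9 wound and jasmonate genes 8 were tested, with a median of 0.09. One stood out: LOXD, the lipoxygenase at the start of jasmonate synthesis, had 1488, 1508, 1706 and 1837 normalized counts at 6 leaves, against 895, 1071, 1004 and 1346 at 4 leaves. The groups did not overlap. Its log2 change of 0.61 ± 0.07 had the smallest p of all list members (limma adjusted p = 0.0975; DESeq2 adjusted p = 7.72e-07), with 0.75 ± 0.08 in A and 0.47 ± 0.08 in B. LOXD was also among the 5 genes called in the A libraries (limma adjusted p = 0.0487) and was called without ltm 4 leaves A. The trichome and epidermis list had 3 tested genes and a median of -0.19. Its member Wo, a homeobox gene of hair cells, had a log2 change of -0.19 ± 0.08 (limma adjusted p = 0.269).

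Over all genes, the 2 higher and 2 lower ones with the smallest p all had the same limma adjusted p of 0.0975, and all 4 were called by DESeq2. The tables used here give none of them a name. Solyc02g084900 had 1145, 886, 1177 and 1239 normalized counts at 6 leaves, against 544, 427, 842 and 653 at 4 leaves (0.88 ± 0.11, 0.78 in A and 0.99 in B). Solyc07g006380 had 1738, 801, 6780.3 and 4568 normalized counts at 6 leaves, against 728, 273, 1529 and 1447 at 4 leaves (1.65 ± 0.20, 1.70 in A and 1.6 in B). Solyc02g084900 kept the leaf numbers apart, while the WT values of Solyc07g006380 exceeded those of ltm at each leaf number. Solyc04g049920 had 265, 286, 212 and 296 normalized counts at 6 leaves, against 413, 525, 507 and 512 at 4 leaves (-0.89 ± 0.11, -0.95 in A and -0.83 in B). Solyc04g082030 had 1220, 895, 1296 and 1308 normalized counts at 6 leaves, against 1768, 1521, 2084 and 2017 at 4 leaves (-0.65 ± 0.08, -0.61 in A and -0.69 in B). Neither of these lower genes had overlapping libraries. The second gene that edgeR called, in no list, had 0, 3.0, 0.996 and 2.27 normalized counts at 6 leaves, against 4.06, 96.7, 2.74 and 169 at 4 leaves. It thus stood high in the B libraries at 4 leaves alone (edgeR adjusted p = 0.0327). It passed the filter on low values only through these libraries, so that p-value is no independent support for a leaf number change.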

How the data were processed

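The deposited signal values are reads per gene that the authors scaled with 1 size factor for each library. The submitters' processing notes name TopHat2 2.0.10, HTSeq 0.6.1p1 and DESeq2 1.6.3, and no genome build is given in the sources used here. Dividing each value by that of 1 read gave whole reads for 100% of values (tolerance 1e-06), which recovered the reads. In 3 libraries 1 read is worth within about 1% of 1, so the size of that step alone cannot tell recovered reads from rounded values. The values there are not whole numbers, for example 36.989 for FUL1 in ltm 6 leaves B. The leaf number test used limma 3.58.1 with a trend, in R 4.3.3, on log2(value + 1), so fold changes understate those of low genes. As alternatives, the recovered reads went into edgeR 4.0.16 and DESeq2 1.42.0. Scripts were tested on simulated data, where the leaf number fit made more false calls than its nominal rate. Errors of the A and B changes come from the fit of all 8 libraries.

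The letters were checked for pairing: deviations of same-letter libraries from their group means correlated between 0.129 and 0.522 across genes in all 6 pairs of groups, each over 0.1. The letter was a term of the planned model, and the labels do not state a pairing. The highest correlation, 0.522, was between the groups at 4 leaves, whose B libraries stood apart. These correlations therefore cannot show whether libraries of 1 letter were true pairs. The comparison, the 15 lists and their members were chosen with earlier results of these data known. The naming rule took every floral transition gene, the member with the smallest p of each other list, list members called over all genes, the 2 higher and 2 lower genes outside the lists with the smallest p, and 2 list members per interaction. The other genes named were chosen after their values were seen. Names were paired with identifiers from general knowledge. Of 148 pairs, 76 had a RefSeq symbol (assembly SLM_r2.1) on the same chromosome, 2 on another, whose names are not used, and 70 none. Unmatched names, among them STM3, FA, TMF, BL, CLAUSA, TF, most SBP-box, all clock and all chlorophyll-binding genes, rest on the identifier alone. Alternatives were other pseudocounts, filters, quantile normalization, other tools, subsets and each library left out.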

Additional observations from a re-analysis of the deposited data

Results flagged for a closer look

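The leaf number change differed between the B and the A libraries by an interaction test for 302 genes over the whole table. Among the genes named by rule, CLV1 had a B minus A difference of 0.78, PAL5 of -1.02 and HSP101 of -0.88 (log2).

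Single libraries stood far from the other 3 at 4 leaves for 3 named genes, by Dixon's test. FA had 3229 and TMF 4225 in ltm 4 leaves B, and Solyc04g049920 had 413 in ltm 4 leaves A. For Solyc05g056620 the 1.04 normalized counts in WT 4 leaves B are a single read against 0 in the other 3 libraries, where the test gives its highest value by construction and shows nothing. Chance marks about 1 in 20 groups of 4 in this way.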

How the results depend on the processing

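The leaf number count of 0 became 2 with edgeR, 280 with DESeq2, 3 in the A libraries only, 6236 in the B libraries only, 310 in the WT libraries only, and 0 to 1745 with a library left out. The B minus A count of 302 became 50 without a filter, 701 with DESeq2, and 0 to 2479 with a library left out. The count of 5 in the A libraries became 3 with a pseudocount of 5, 0 without a filter, 3 with a filter at 50, 2 after quantile normalization and 2 with the pooled spread. The count of 6233 in the B libraries became 0 without a filter and 3339 with the pooled spread. The cause was not tested. Without the replicate block (the letter, by which the model matched the libraries) 0 genes were called for leaf number, 2258 at an unadjusted p under 0.05, and 0 for the genotype interaction.

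Of 1508 values of 73 genes under alternatives, 1308 kept direction and side of the threshold, 132 passed it and 68 turned direction. Without both B libraries at 4 leaves, or in the A libraries only, these were SP (0.63), FA (-0.16), S (-0.0146), PAL5 (0.21), CLV3 (-0.19), CHS1 (0.84), DFR (0.23), ANS (0.0439), F35H (0.40), Solyc02g070940 (0.17), TOC1 (-0.045), FKF1 (-0.0732), GI_a (0.256), LNK2 (0.0514), GA2ox4 (-1.76) and GA2ox5 (-0.892). In the B libraries only they were TMF (-0.0268), CLV1 (0.33) and WUS (0.20). In WT only they were TMF (-0.0574), WUS (0.0415), GI_a (0.275) and LNK2 (0.00271), and in ltm only FA (-0.00305), MBP3 (0.46), CHS1 (0.34), PRR7 (-0.241), GA2ox4 (-0.621) and GA2ox5 (-0.149). With single libraries left out, the change of SP ranged over -1.27 to 0.474, of FA over -0.0543 to 0.182, of TMF over -0.0288 to 0.112, of CLV1 over -0.17 to 0.0517, of WUS over -0.266 to 0.027, of CHS1 over -0.467 to 0.247, of GI_a over -0.572 to 0.106, of PRR7 over -0.0618 to 0.85, of GA2ox2 over -0.979 to 0.402 and of GA2ox4 over -0.409 to 1.89.

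With 2 libraries per group, fits within a letter or genotype have 1 residual degree of freedom, and their counts of calls moved with the filter and the spread used. Genes under the filter, SFT among them, rest on few reads.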
